A study of Mus musculus with 8 samples.

Results

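The loci described here are windows around 5 genes that regulate spermatogonia, the mitotic germ cells of the testis: Zbtb16, Sall4, Dmrt1, Gfra1 and Kit. The windows are given in mm9 and were chosen by gene and not by a level of H3K4me3, though with earlier results of these data known. They run from 48.44 to 48.66 Mb on chromosome 9 for Zbtb16, from 168.56 to 168.6 Mb on chromosome 2 for Sall4 and from 25.56 to 25.69 Mb on chromosome 19 for Dmrt1. The Gfra1 window lies on chromosome 19 from 58.29 to 58.55 Mb and the Kit window on chromosome 5 from 75.95 to 76.06 Mb. A member is any H3K4me3 region that overlaps a window by at least 1 bp. With overlapping or touching regions of the 4 libraries merged, the windows held 7 of the 16519 merged regions of the series.

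Histone H3 trimethylated at lysine 4 (H3K4me3) was mapped by ChIP-seq in testis tissue of adult C57BL/6 mice whose exact age is not given in the sources used here. One group was labelled H3f3b WT/WT (libraries WT 66 and WT 74) and the other H3f3b null (KO 67 and KO 73), H3f3b being a gene for the histone variant H3.3. How the null allele was made, and whether each number is a separate animal, are not given in the labels, so p-values reflect the spread from library to library alone, which may be technical. The 4 input libraries were not analysed here, and neither the targeted gene nor markers of the tissue were checked, because no gene positions in mm9 were used. The lists hold 14078, 14551, 10502 and 12497 regions in WT 66, WT 74, KO 67 and KO 73, and the absolute depth is unknown. The deposited scores lie on a grid whose step differs by library. If 1 step is 1 tag and the lists were scaled alike, which is not stated, depth relative to KO 73 was 1.66, 1.04 and 4.46 in WT 66, WT 74 and KO 67. A whole testis mixes many cell types, so fewer cells of a type and less of the mark per cell cannot be told apart.

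Spermatogonia either renew themselves as stem and progenitor cells or differentiate and enter meiosis. Zbtb16 (PLZF) and Sall4 encode zinc finger transcription factors of undifferentiated spermatogonia. Dmrt1 encodes a DM-domain transcription factor of spermatogonia and Sertoli cells that restrains entry into meiosis. Gfra1 encodes the co-receptor through which Sertoli-cell GDNF acts on stem spermatogonia, and Kit the receptor tyrosine kinase for stem cell factor, which marks differentiating spermatogonia and is also made by Leydig cells. Spermatogonia are a minority among the meiotic and postmeiotic germ cells of an adult testis. H3K4me3 is typical of active promoters, above all those rich in CpG dinucleotides.

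The RefSeq promoter table at hand held 2 of the 5 genes, Kit and Gfra1. Their 250 bases before the gene start are shown because CpG content was not used to choose the loci. The Kit window held a region in every library and that of Gfra1 in the WT libraries alone. That presence is of regions in the windows and not of regions at these stretches. Zbtb16, Sall4 and Dmrt1 had no entry. The sequences are from GRCm38.p6, a build other than that of the regions, and capitals mark CpG dinucleotides. The Kit sequence is chr5:75574737-75574986 on the plus strand, for the first of its listed starts, and the Gfra1 sequence is chr19:58455399-58455648 on the minus strand.
Kit: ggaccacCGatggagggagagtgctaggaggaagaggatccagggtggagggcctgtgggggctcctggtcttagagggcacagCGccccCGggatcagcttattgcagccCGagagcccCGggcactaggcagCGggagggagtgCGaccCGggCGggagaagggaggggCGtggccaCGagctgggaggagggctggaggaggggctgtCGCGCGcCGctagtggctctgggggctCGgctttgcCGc
Gfra1: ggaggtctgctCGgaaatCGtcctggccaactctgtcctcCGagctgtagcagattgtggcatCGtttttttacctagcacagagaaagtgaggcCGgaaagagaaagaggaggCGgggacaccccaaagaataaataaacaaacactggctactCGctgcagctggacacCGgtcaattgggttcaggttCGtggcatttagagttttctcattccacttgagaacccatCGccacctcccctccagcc
The Kit stretch holds 17 CpG dinucleotides and 70.8% G+C, and that of Gfra1 holds 10 and 52.4%. The medians over the 32841 promoters of the table were 6 and 52.4%, so both genes lay above the median in CpG number, at percentiles 77.4 and 63.3. The GC box GGGCGG, searched on both strands, occurred 1 time in Kit and 0 times in Gfra1, and at least once in 32.7% of all promoters of this length. The TATA box TATAAA was found in neither, against 12.4% of all. Without a mm9 genome, the Kit stretch could not be placed against the H3K4me3 regions. If Gfra1 has its GRCm38 length in mm9 and lies wholly in its window, the region there is at least 76.6 kb from either gene end. On that assumption, no library had a called region at the start of Gfra1.

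The Zbtb16, Sall4, Dmrt1 and Kit windows held an H3K4me3 region in both null libraries, and the region in the Gfra1 window was called in the WT libraries and in neither null library. Of the 7 merged regions, 4 were present in all 4 libraries (1 each at Zbtb16, Sall4, Dmrt1 and Kit), against 59% of all merged regions. The windows held 5 regions present in both WT libraries, of which 1 was absent from both KO libraries, against 11.8% over the series. None of the 5 regions that both KO libraries held was absent from both WT libraries, where the series gave 0.589%. A count of 1 in 5 does not separate these loci from that background. The remaining 2 regions, a second one at Kit and a second one at Dmrt1, were found in libraries of both genotypes.

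**Figure D1:**
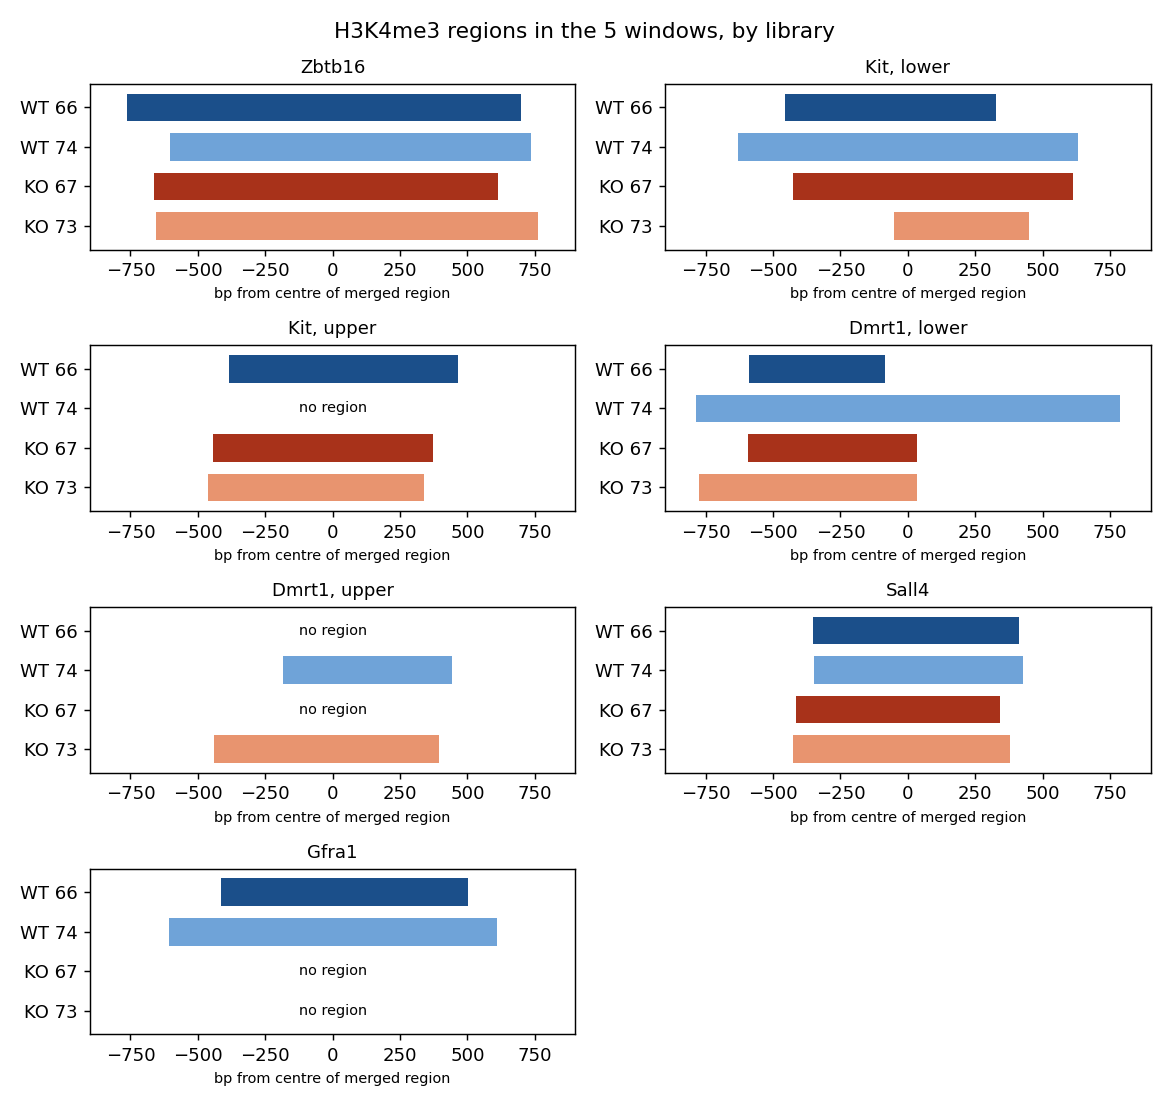
Extent of each H3K4me3 region in the 5 windows, in bp from the centre of the merged region (horizontal axis), for each library (rows; blue WT, red KO). Zbtb16, Sall4 and the lower regions of Kit and Dmrt1 have a bar in all 4 libraries, while Gfra1 has bars of 917 and 1217 bp in WT and none in KO.

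Summed over the 5 windows, WT 66 had 5274 bp, WT 74 6798 bp, KO 67 4516 bp and KO 73 5170 bp. The whole lists covered 22.0, 21.2, 14.5 and 16.1 Mb in the same order, with both KO lists below both WT lists. Within the windows, both KO sums were also below both WT sums, with a mean of 4843 ± 462 bp against 6036 ± 1078 bp (n = 2 each, errors are SD). The difference of -1193 bp had a 2-sided exact permutation p = 0.33, the smallest that 2 libraries against 2 allow, so no difference in single values could reach significance. The Gfra1 window alone differed by -1067 bp. The difference of the sums was -431 bp without WT 74 and -1955 bp without WT 66, -340.5 bp with regions under the 25th percentile of score dropped and -1973 bp with windows widened by 20 kb on each side. In lists held to one length by score it was 1164 bp, in the opposite direction. That setting kept the 10502 top-scoring regions of each list, which is the whole of KO 67. It dropped low-ranked members from WT 66, WT 74 and KO 73 and none from KO 67, so it cannot decide the direction. The windows held 6, 6, 5 and 6 regions in WT 66, WT 74, KO 67 and KO 73.

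**Figure D2:**
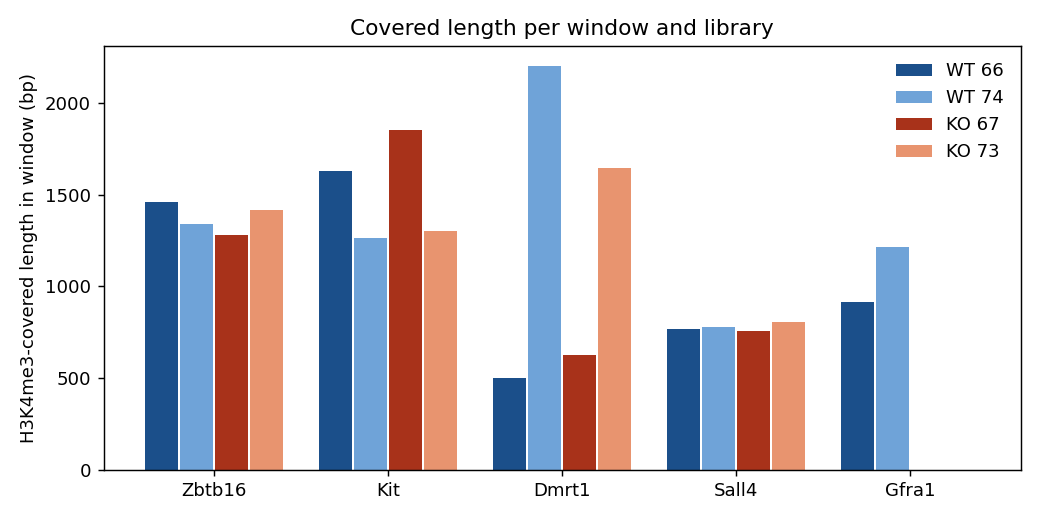
H3K4me3-covered length in bp (vertical axis, from 0) in each of the 5 windows, with 1 bar per library and no error bar. Bars of the genotypes overlap at Zbtb16, Kit, Dmrt1 and Sall4, and Gfra1 has bars only in WT.

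The widest region of the loci by mean WT length lay in the Zbtb16 window, and whether it lies in that gene could not be settled. It spanned chr9:48642907-48644431 after merging. In width, WT 66 had 1461 bp, WT 74 1339 bp, KO 67 1279 bp and KO 73 1418 bp. The KO values lie on either side of WT 74, so the genotypes overlap. The WT mean was 1400 ± 86.3 bp and the KO mean 1348.5 ± 98.3 bp (SD, n = 2; exact permutation p = 0.667). The log2 change was -0.05 ± 0.15 (SE; limma adjusted p = 0.882), and all libraries shared 1218 bp, 79.9% of the merged region. The region lay 15.6 kb below the upper end of the window, and the nearest other merged region was 148 kb away. The median gap to the nearest neighbour over autosomal regions was 24.9 kb.

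The Sall4 window held the region with the least spread in width among the 4 found in all libraries. It spanned chr2:168566575-168567428. In width, WT 66 had 765 bp, WT 74 776 bp, KO 67 757 bp and KO 73 805 bp. The log2 change was 0.02 ± 0.19 (SE; limma adjusted p = 0.972), with a 95% interval of the difference from -0.46 to 0.50. The shared part was 691 bp, 80.9% of the merged region. This region began 6.58 kb above the lower end of the window, on the side of the neighbouring gene Atp9a. The gene Sall4 itself is 18.9 kb long in GRCm38 and fills 47.2% of its 40 kb window, so whether the region belongs to Sall4 or to Atp9a cannot be told apart here.

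At Dmrt1 the WT libraries differed from each other by more than the genotype means did. In its lower region, chr19:25579996-25581571, WT 66 had 501 bp, WT 74 1576 bp, KO 67 627 bp and KO 73 809 bp. WT 66 was at the narrowest width in any list, WT 74 was the widest, and both KO values lay between them. The WT libraries differed 3.15-fold, and 1.24% of autosomal regions of like mean WT width had a WT ratio at least as large. The log2 change was -0.32 ± 0.55 (SE; limma adjusted p = 0.790), and it was 0.51 without WT 74 and -1.15 without WT 66. The spread lay mostly at the upper edge, whose position varied by 875 bp against 200 bp at the lower edge. All 4 libraries shared 501 bp, 31.8% of the merged region. Whether this region lies in the gene Dmrt1 could not be settled.

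The upper region of the Dmrt1 window, chr19:25684809-25685691, was found in 1 library of each genotype, WT 74 with 626 bp and KO 73 with 837 bp, and had no region in WT 66 or KO 67. Such a pattern, 1 library per genotype, was seen in 3.72% of merged regions. Of the 1023 autosomal regions of WT 74 within 10% of its width there, 34.4% were missing from WT 66 and 66.9% from KO 67. Of the 1513 such regions of KO 73, the shares were 10.0% and 23.4%. By the score steps, WT 74 and KO 73 are the libraries of least depth. The region ended 4.31 kb below the upper end of the window. The next gene on that side is Dmrt3, another DM-domain gene, and the region cannot be assigned to one of the pair.

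Gfra1 was the locus whose region was called in WT only. The region, chr19:58432544-58433760, was 917 bp wide in WT 66 and 1217 bp wide in WT 74, and no region was called anywhere in the 260 kb window in KO 67 or KO 73. Every WT value is thus above every KO value, with exact permutation p = 0.33. In WT 66 the region scored 38.4, 1.91 times the smallest score of its list, and in WT 74 it scored 62.7, 3.00 times. An uncalled region can still hold signal below the threshold, which the files do not show: the smallest scores were 20.2 in KO 67 and 20.3 in KO 73, or 62 and 14 steps. KO 67 was the deepest library by this measure and also had the shortest list, 10502 regions. Whether depth bears on the missing call was not tested. With lists held to one length, or regions under the 25th percentile dropped, the Gfra1 region was no longer in WT 66 and did not count as lost.

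The lost region lay deep in the Gfra1 window, 143 kb from its lower and 116 kb from its upper end. Gfra1 is 220 kb long in GRCm38. If its length is the same in mm9 and the window holds the whole gene, the region lies inside the gene and at least 76.6 kb from either end of it. The window held no other region in any of the 4 libraries. The nearest other merged region was 152 kb away, a gap larger than that of 91.6% of autosomal regions.

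Kit carried 2 regions 5.06 kb apart, and both were found in both null libraries. In the lower one, chr5:75964643-75965906, WT 66 had 783 bp, WT 74 1264 bp, KO 67 1037 bp and KO 73 501 bp. KO 67 lies between the WT values and KO 73 lies below both, at the narrowest width called. The log2 change of -0.46 ± 0.42 (SE) did not pass (limma adjusted p = 0.595) and was 0.06 without KO 73. The libraries shared 379 bp, 30.0% of the merged region. The upper one, chr5:75970962-75971887, was 847 bp wide in WT 66, 816 bp wide in KO 67 and 800 bp wide in KO 73, and WT 74 had no region there. These 3 widths lie within 47 bp of each other.

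Regions found in both KO libraries and 1 WT library, as the upper Kit region was, made up 1.3% of merged regions. Among autosomal regions of KO 67 within 10% of its width there, 3.99% were missing from WT 74. The share was 12.4% for such regions of KO 73 and 18.0% for those of WT 66. Kit is 81.7 kb long in GRCm38 and its window 110 kb, so where in the gene or before it the regions lie could not be settled. The covered length of the whole Kit window averaged 1447 ± 259 bp over the WT and 1577 ± 390 bp over the KO libraries (SD, n = 2; exact permutation p = 0.667).

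By limma over the 9742 regions found in all 4 libraries, 3.61% changed in width at an adjusted p of 0.05. None of the 4 member regions did. At an unadjusted p under 0.05 there were 0 of the 4 members and 1901 of the 9742 regions. Counts of 0 in 4 do not separate these loci from the series. Both KO widths were below both WT widths in 0 of the 4 members and in 47.4% of all such regions. They were above both in 0 members and in 4.74% of all. The median log2 change was -0.19 over the 4 members and -0.18 over all 9742 regions. Subtracting library medians moved the median of all regions from -0.18 to 0.05. Relative to the median of all, the changes were 0.13 at Zbtb16, 0.20 at Sall4, -0.14 at Dmrt1 and -0.28 at Kit. Before subtracting library medians, the changes at Zbtb16, Sall4 and Dmrt1 were smaller than their SEs, and that at Kit (-0.46) was slightly larger than its SE of 0.42. The sign at Zbtb16 differs with that scaling, which moves all regions together.

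The members were set against other autosomal regions present in both WT libraries at a like width. Of 973 regions within 10% of the mean WT width at Sall4, 48.3% were absent from at least 1 KO library (95% exact binomial interval 45.1 to 51.5), and 25.7% were absent from both. For the lower regions of Kit and Dmrt1 the shares absent from a KO library were 27.8% of 1513 and 27.7% of 1530. At Zbtb16, whose region is wider, the share was 13.2% of 1837. Over the series, 22.4% of both-WT regions were absent from a KO library. These shares describe the like regions and are no test of the members. The interval given for Sall4 covers counting error only.

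Loss such as that at Gfra1 was met in 13.6% of the 1579 regions of like WT width. Among the 1026 of them that also had a like score rank, within 10 percentile points, 19.8% were lost. Among the like regions still found in all 4 libraries, the median log2 change was -0.15 for Zbtb16, -0.07 for Kit, -0.08 for Dmrt1 and 0.02 for Sall4. Sall4 and Zbtb16 lay within 0.1 of these medians, and Kit and Dmrt1 lay below the lower quartiles of -0.25 and -0.27. With absent regions counted as the largest falls, 34.7% of the regions like Kit and 43.1% of those like Dmrt1 had a change as low as that member's or lower. The same held for 73.3% of those like Sall4 and 74.03% of those like Zbtb16.

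**Figure D3:**
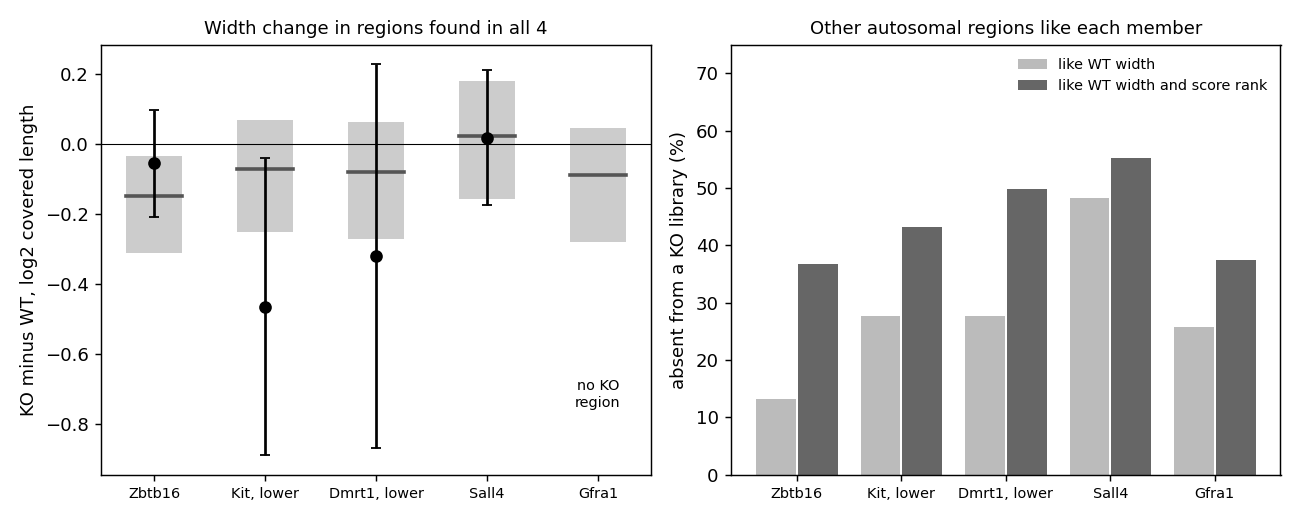
Left, KO minus WT log2 covered length (vertical axis) for each member region found in all 4 libraries (points, with bars for the limma SE). Grey boxes are the quartile range and lines the median of autosomal regions of like WT width that were also found in all 4 libraries. Right, the percent of like regions absent from at least 1 KO library, by WT width alone (light) or width and score rank (dark), from 13.2% at Zbtb16 to 55.2% at Sall4.

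The members ranked in the lower part of every list. Ranked by the authors' score within each list, 0 of the 23 regions lay above the median of their list. The percentiles ran from 9.998 to 38.3 in WT 66, from 17.6 to 42.5 in WT 74, from 8.06 to 28.2 in KO 67 and from 10.9 to 45.0 in KO 73. Zbtb16 ranked first among the loci in WT 66, KO 67 and KO 73, at percentiles 38.3, 28.2 and 45.0, and the lower Dmrt1 region ranked first in WT 74. Dmrt1 ranked last in WT 66 and KO 67, at 9.998 and 8.06. By width, Zbtb16 in WT 66, WT 74 and KO 73 and the lower Dmrt1 region in WT 74 exceeded the median of their list, and the other 19 regions did not. None reached 3000 bp in any library.

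**Figure D4:**
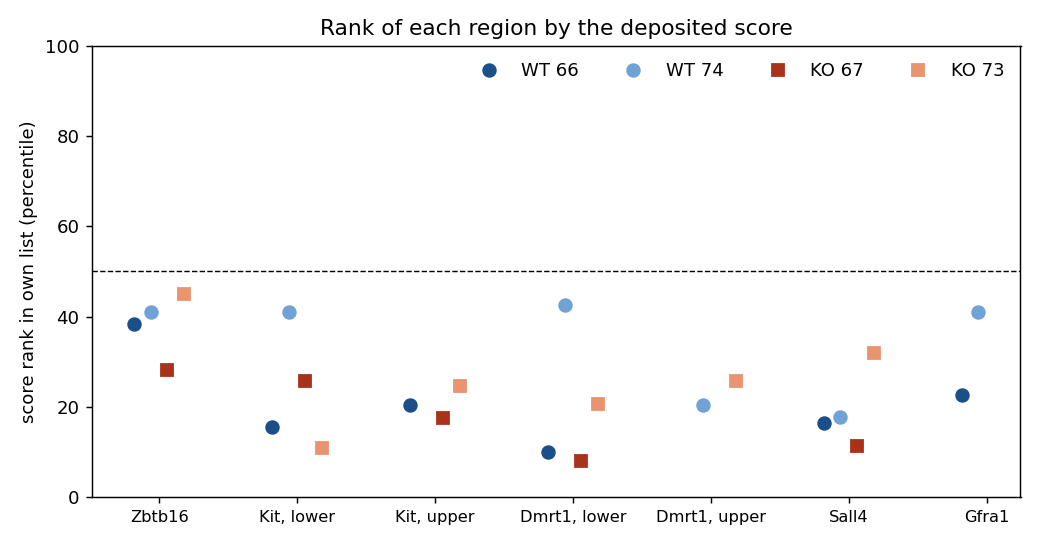
Percentile of each member region by the deposited score within its own list (vertical axis), for the 7 merged regions (horizontal axis) and 4 libraries (circles WT, squares KO). The points lie below the dashed line at the list median, and the highest is Zbtb16 in KO 73 at 45.0. Ranks from lists of different lengths show no change between libraries.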

How the data were processed

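H3K4me3 ChIP-seq region lists of 4 testis libraries were used, 2 per genotype. Bowtie, HOMER and mm9 are named per the submitters' processing notes, with versions, settings and use of inputs not given in the sources used here. Each region has a deposited score from the authors' tool with no stated scale. The score served to rank and filter within a list and for ratios to the smallest score of that list. Its step served for the estimate of relative depth between libraries. Starts were converted to count from 1, and regions were merged where they overlapped or touched. Lost regions were in both WT and neither KO library. For single values the test was a 2-sided exact permutation over the 6 labelled splits. Log2 widths of regions in all 4 libraries were fitted, without a pseudocount, with limma 3.58.1 in R 4.3.3. The fit used a variance trend and Benjamini-Hochberg adjustment over all regions, with a threshold of 0.05. It was also run on widths simulated from its own fitted variances, which cannot show how it performs on real libraries. Like regions were autosomal, in both WT libraries and within 10% of the mean WT width. Every merged region of the 5 windows is named. The members, lists and tests were chosen with earlier results of these data known. A planned list of further spermatogonial and other testis genes was not run, since no gene positions in mm9 were used. Gene lengths and neighbours are from RefSeq on GRCm38.p6.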

Additional observations from a re-analysis of the deposited data

How the results depend on the processing

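The loss at Gfra1 (1 region) cannot change when 1 library is left out, so that setting is no check of it, and the share lost over the series then ran from 13.75% to 20.5%. The loss was also counted with merging within 1000 bp (11.8% over the series) and with an overlap of at least 50% of the merged region (17.4%). It became 0 with the stricter score threshold and in lists of one length, where WT 66 no longer holds the region. Gains numbered from 0 to 1 with a library left out, the 1 being the upper Kit region without WT 66 (1.85% over the series). In lists of one length they numbered 2, the upper Kit region and Sall4, against 5.23% over the series. Both KO lists then also held Zbtb16 and the lower Dmrt1 region. The 2 gained regions had WT calls in the full lists, which the trimming by score dropped, while KO 67 was left uncut. With the same trimming, the KO minus WT covered length was 348.5 bp at Dmrt1 and 1164 bp over all loci, and the difference in number of regions was 2.5. That number was 0.5 with the stricter threshold and ran from -1 to 0 with a library left out. The widest region alone gave -254.5 bp at Kit. With a library left out, the covered length ranged from -1065.5 to 635.5 bp at Dmrt1, from -146 to 406 bp at Kit, from -13.5 to 34.5 bp at Sall4 and from -121 to 18 bp at Zbtb16. The log2 width change ranged from -1.15 to 0.51, from -0.99 to 0.060, from -0.025 to 0.063 and from -0.13 to 0.020 in the same order, and was 0.18 at Zbtb16 after subtracting library medians. Reversals with a library left out, single values included, were 0.51 at Dmrt1 (without WT 74), -0.025 at Sall4 (without KO 73), 0.060 at Kit (without KO 73), and 0.020 and 0.0083 at Zbtb16 (without KO 67 and WT 66). For covered length they were 635.5 and 294.5 bp at Dmrt1 (without WT 74 and KO 67), -53 and -146 bp at Kit (the same order), -13.5 bp at Sall4 (without KO 73) and 9.5 and 18 bp at Zbtb16 (without WT 66 and KO 67). The cause was not tested. limma called 352 regions of the series, 98 without a variance trend, 80 after subtracting library medians and 0 with any library left out (1100 to 1926 at an unadjusted p under 0.05, the lone library being assumed to vary like the others). It called 0 members in each, with 1 member left to test under the stricter threshold and in lists of one length. At an unadjusted p under 0.05 it had 1 member, Dmrt1 without WT 66 (log2 change -1.15, limma adjusted p = 0.390). The covered length over all loci ranged from -1955 to -431 bp with a library left out. Adding a like score rank raised the share of like regions absent from a KO library to 36.8% for Zbtb16, 43.1% for Kit, 49.8% for Dmrt1, 55.2% for Sall4 and 37.5% for Gfra1. No paired analysis was possible because the 2 genotypes share no library number. The absolute depth is unknown, so a region that was not called cannot be read as absent of the mark.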
